A study of Mus musculus with 54 samples.

Results

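Transcript levels of 9 mouse genes of the NRF2 antioxidant pathway, Nfe2l2, Keap1, Slc7a11, Gclc, Gclm, Txnrd1, Srxn1, Nqo1, and Hmox1, were followed in differentiating H2K myogenic progenitors, out of 19653 genes listed in at least 1 of 27 tables. The genes were chosen by name for their place in the pathway, with earlier results of these data known. All 9 were listed in all 27 tables. Slc7a11 was selected on its values in these same tables, in which it stood far lower on day 1 than on day 0 in the +EMD line, so its levels are given as a description. RNA from 6 lines was sequenced at 0 h, 24 h, and 48 h of differentiation, called days 0, 1, and 2, with 3 labelled replicates, which may be technical, in each of 18 groups. H2K progenitors are mouse muscle precursors that are kept dividing by a conditional viral T antigen and fuse into myotubes once they are moved to differentiation conditions. The groups were wildtype progenitors, EMD-/y progenitors, which lack emerin, a protein of the inner nuclear membrane, and 4 lines made from EMD-/y progenitors. Those 4 lines carried lentiviral emerin, either unaltered (+EMD) or as one of the muscular dystrophy variants S54F, del95-99, and Q133H. They were kept under puromycin, at selection doses that differed between some of them. The mutant lines were plated more densely than wildtype and EMD-/y progenitors. Handling and emerin variant therefore cannot be told apart in comparisons with wildtype, nor dose and variant between lines selected at different doses. The paper also reports more emerin protein in Q133H than in wildtype.

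NRF2, the product of Nfe2l2, is a transcription factor that is normally bound by KEAP1 and handed to a ubiquitin ligase for destruction. Oxidants and electrophiles alter cysteines of KEAP1, NRF2 then accumulates in the nucleus, and with a small MAF protein it binds antioxidant response elements near its target genes. These targets import cystine, make glutathione, keep thioredoxin reduced, and detoxify quinones and haem. NRF2 is regulated largely through its protein, so the transcript of Nfe2l2 alone does not report its activity. Slc7a11 is also a target of ATF4, the transcription factor of the amino acid response.

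The deposited tables give 1 value for a gene in a group, in normalized counts, which is called the level here. No values of single replicates were analysed, so no spread between replicates and no test can be given, and a difference is described as past the threshold when the levels differ at least 2-fold within a table. Column sums were between 16.7 M and 21.1 M normalized counts. Emd, the emerin gene, was at 987 to 1962 in wildtype and at most 3.52 in the other lines, +EMD included, so its level shows the deletion, and the introduced emerin is not seen in it. Myod1, the myogenic transcription factor, was at 6217 to 25426. Of the 17 markers of other cells, the macrophage gene Adgre1 and the adipocyte genes Adipoq and Plin1 were at or below 0.56 in every table that listed them, and Ptprc, the common leukocyte antigen, was at or below 2.04. Others of these lists were higher, such as Cd68, a lysosomal protein of macrophages, at up to 119.5, and Pparg, a regulator of fat cell genes, at up to 111. The fibroblast-associated collagen Col1a1, which muscle precursors also express, was at 588 to 19136, while Lum was at or below 0.664. In bulk RNA, fewer cells of a type and less RNA per cell cannot be told apart.

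The antioxidant response element has the core letters TGACNNNGC, and the members were searched for it because several of them are textbook targets through such sites. Promoter sequence was given for 7 of the 9 genes (RefSeq, GRCm38.p6), and the 250 bases before each start were searched on both strands. The letters were found in 3 of the 9 member windows, since Txnrd1 has 3 starts, against 10.2% of all 32851 promoters. The 3 matches are shown with 10 bases on each side, in capitals, read along the strand that holds the letters.
Nfe2l2, chr2:75704885-75704913, minus strand: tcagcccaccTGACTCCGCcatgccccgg
Gclm, chr3:122245413-122245441, minus strand: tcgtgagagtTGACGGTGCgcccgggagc
Txnrd1, chr10:82859104-82859132, minus strand: cgtgtcagaaTGACAAAGCaaaaatccag

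The looser letters TGANNNNGC were in 7 of the 9 member windows and in 35.2% of all promoters. Neither form of the letters was found in the window of Nqo1, and Keap1 held 1 looser match. Srxn1, which showed the largest difference between a line and wildtype, held 3 looser matches, shown here in the same way. The windows of the second and the last overlap on opposite strands.
Srxn1, chr2:152105356-152105384, minus strand: ccagagaggaTGAGTCGGCtctcagtaga
Srxn1, chr2:152105457-152105485, minus strand: tgactcagggTGAATTTGCaggtcgcgga
Srxn1, chr2:152105469-152105497, plus strand: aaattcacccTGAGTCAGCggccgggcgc

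Slc7a11 had the largest difference between consecutive days, and its whole window is shown, with the 2 looser matches in capitals as they read on the opposite strand.
Slc7a11, chr3:50443614-50443863, minus strand: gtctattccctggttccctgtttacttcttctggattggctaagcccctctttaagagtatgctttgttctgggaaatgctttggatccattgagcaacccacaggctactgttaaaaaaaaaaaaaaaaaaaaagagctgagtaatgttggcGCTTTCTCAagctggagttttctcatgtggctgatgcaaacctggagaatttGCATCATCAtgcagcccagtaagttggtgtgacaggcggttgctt
A match is a run of letters and not a measured site, and binding was not measured in these samples.

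As the progenitors left growth conditions, from day 0 to day 1, the levels of Nqo1, Gclm, Srxn1, and Txnrd1 were lower in all 6 lines, and Slc7a11 was lower in all 6 as well. Gclc was also lower in all 6, with log2 changes of -0.67 to -0.13. At least 2-fold lower levels were found for 4 of 9 genes in wildtype (Nqo1, Gclm, Srxn1, and Txnrd1), where 10.4% of all listed genes were that much lower. The count was 5 of 9 in EMD-/y (background 9.19%), 5 of 9 in S54F (7.49%), and 5 of 9 in +EMD (6.85%), with Slc7a11 as the gene added in each. In del95-99 it was 4 of 9 (7.19%), since Srxn1 was only 1.75-fold lower, and in Q133H it was 2 of 9 (6.42%), Nqo1 and Slc7a11. None of the 9 genes was 2-fold higher in any line. Slc7a11 was chosen by this transition, and without it the counts were 4 of 8 genes in wildtype, EMD-/y, S54F, and +EMD, 3 of 8 in del95-99, and 1 of 8 in Q133H.

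From day 1 to day 2 the genes moved apart between lines. Wildtype had 2 of 9 genes past 2-fold, both lower, Nqo1 and Srxn1, against 19.2% of all listed genes in either direction. EMD-/y (17.7%), S54F (19.6%), and +EMD (19.3%) each had Slc7a11 at least 2-fold higher and Nqo1 at least 2-fold lower. In del95-99 0 of 9 genes passed (13.6%), and in Q133H Slc7a11 and Hmox1 were at least 2-fold higher (10.1%). For wildtype, EMD-/y, S54F, and +EMD these shares of 2 of 9 are near the background. Without Slc7a11, 1 of 8 genes passed in EMD-/y, S54F, +EMD, and Q133H. The counts also rest on the scaling. With columns divided by their sums, Slc7a11 was no longer past 2-fold in S54F and +EMD, Srxn1 became so in EMD-/y, S54F, and +EMD, Gclc in S54F and +EMD, and Nqo1 in del95-99, the last 3 genes as lower.

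**Figure D1:**
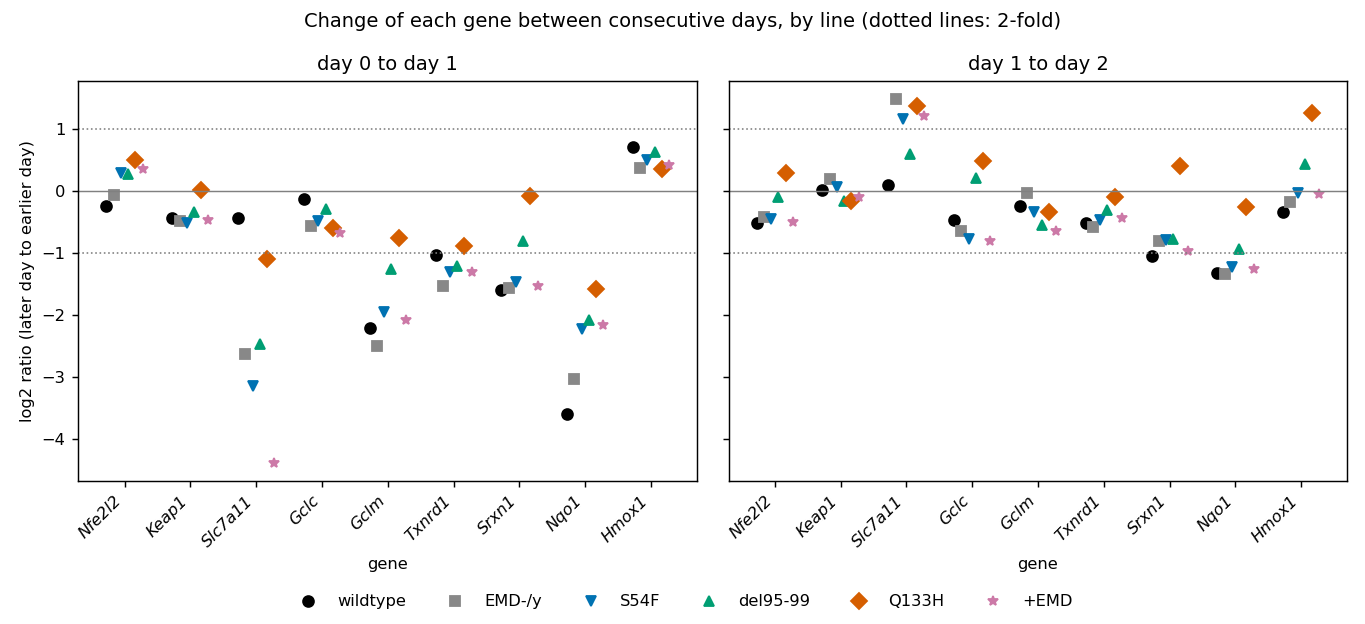
Log2 ratio of the later to the earlier day for each of the 9 genes, with 1 point for each of 6 lines and the 2 transitions in separate panels; dotted lines mark 2-fold. Slc7a11 spans -4.38 in +EMD to -0.44 in wildtype in the day 0 to day 1 panel, and Q133H is the highest point for 6 of 9 genes in the day 1 to day 2 panel.

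Against wildtype on the same day, the 2 lines with the most genes above wildtype were del95-99 and Q133H, and the count was highest on day 2. On day 2, Srxn1, Nqo1, Gclm, Hmox1, Nfe2l2, and Gclc were at least 2-fold higher in Q133H, 6 of 9 genes against 19.2% of all listed genes. In del95-99 these were Nqo1, Srxn1, Gclc, Nfe2l2, and Hmox1, 5 of 9 against 13.7%. S54F had 2 of 9, Nqo1 and Srxn1 (6.32%), +EMD had Nqo1 alone (11.6%), and EMD-/y had 0 (5.02%). The one gene at least 2-fold lower on day 2 was Slc7a11 in S54F, where 5.15% of all genes were that much lower. No member was that much lower in EMD-/y (2.88%), del95-99 (9.02%), Q133H (16.1%), or +EMD (7.9%).

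On day 1 the counts were smaller and Slc7a11 went the other way. Nqo1, Srxn1, and Gclm were at least 2-fold higher in del95-99 (3 of 9, background 9.56%) and in Q133H (3 of 9, background 10.3%). Nqo1 alone was so in S54F (6.19%) and in +EMD (9.33%), and 0 of 9 in EMD-/y (4.98%). Slc7a11 was the one member at least 2-fold lower in EMD-/y (2.77% of all genes), S54F (6.75%), Q133H (16.3%), and +EMD (11.2%), and no member was in del95-99 (13.1%). The +EMD level of Slc7a11 on day 1 is also part of the value it was chosen by. Without Slc7a11, 0 of 8 genes were at least 2-fold lower in each line. The Q133H value for Slc7a11 rests on the scaling, since its log2 ratio of -1.09 became -0.98 when both columns were divided by their sums.

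On day 0, before differentiation, few members were apart. Slc7a11 and Gclc were at least 2-fold higher in +EMD (2 of 9, background 6.44%), and Slc7a11 in del95-99 (1 of 9, background 6.19%). The +EMD level of Slc7a11 on day 0 is part of the value it was chosen by. Without Slc7a11 the counts were 1 of 8 in +EMD and 0 of 8 in del95-99. EMD-/y (5.2%), S54F (6.39%), and Q133H (7.09%) had 0 of 9. The 5 comparisons of a day share their wildtype group, so a gene that is low in wildtype stands high in each of them.

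**Figure D2:**
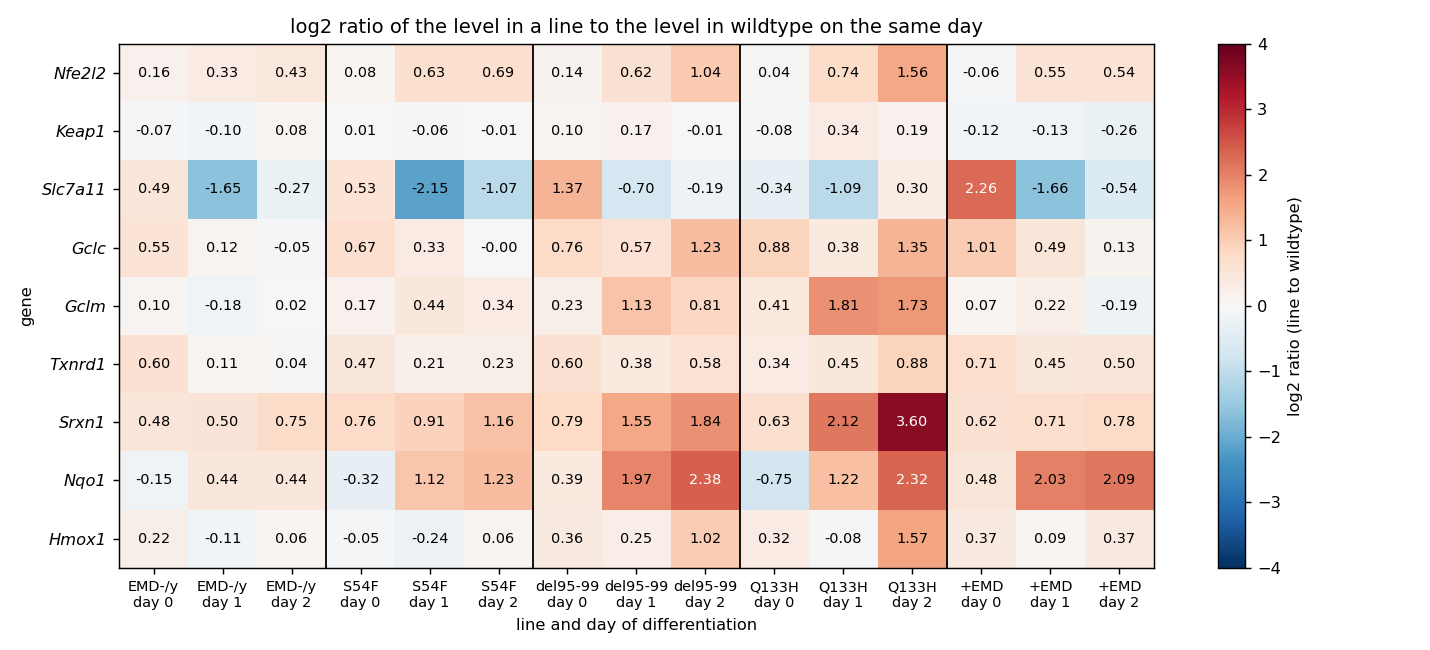
Log2 ratio of the level in a line to that in wildtype on the same day, for 9 genes (rows) and 15 comparisons (columns, grouped by line), printed in each cell and colored from blue (lower) to red (higher). The Slc7a11 row is blue in all 5 lines on day 1 and the Srxn1 row is above 0 in all 15 comparisons, up to 3.60.

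**Figure D3:**
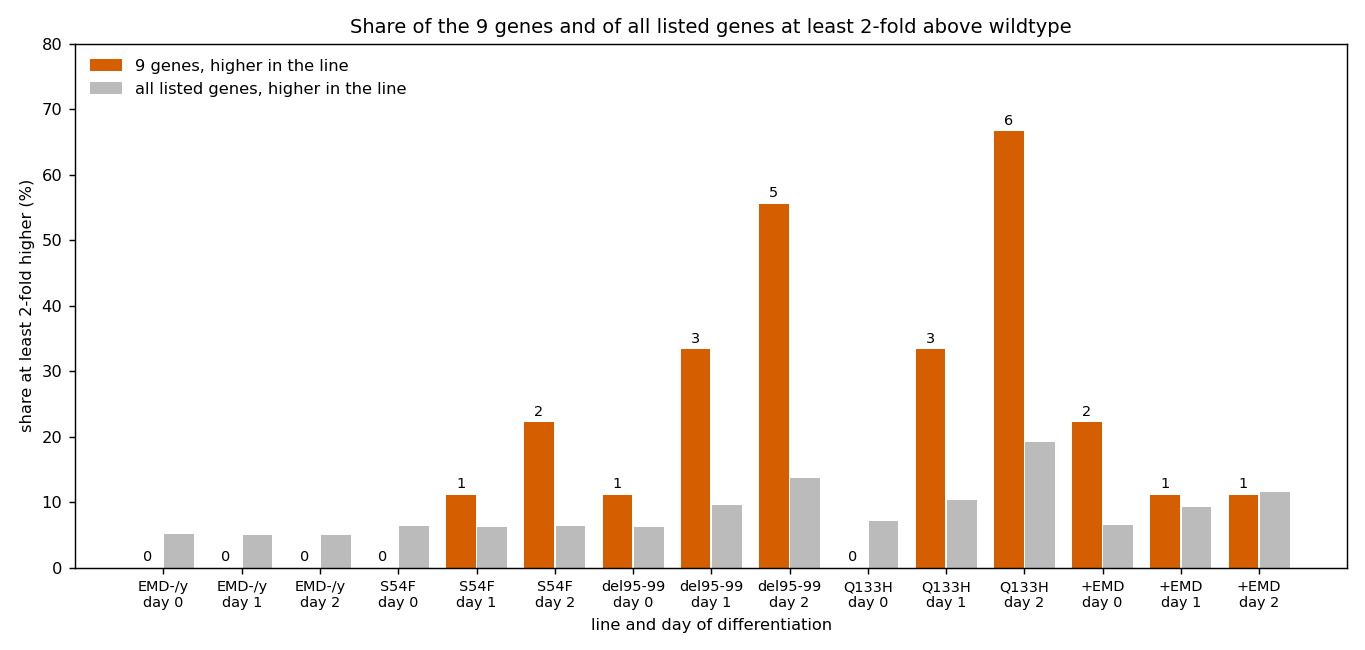
Percentage of the 9 genes (orange, with the count above each bar) and of all listed genes (grey) at least 2-fold above wildtype in each of the 15 comparisons. The orange bars reach 5 and 6 of 9 genes in del95-99 and Q133H on day 2 and stand above the grey bars there, while EMD-/y has 0 on each day.

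Nfe2l2 encodes NRF2 itself. In wildtype its level was 2931 on day 0, 2491 on day 1, and 1536 on day 2. It was 3278, 2983, and 1948 in EMD-/y on the same days, and 3075, 3855, and 2383 in S54F. Wildtype and EMD-/y thus declined from day to day, while S54F peaked on day 1. In del95-99 the levels were 3269, 3919, and 3288, in Q133H 3039, 4263, and 4839, and in +EMD 2790, 3636, and 2195. The 6 lines lay within 1.18-fold of each other on day 0 and spread to 3.15-fold on day 2, with wildtype lowest and Q133H highest. These spreads use the wildtype level averaged over its 5 comparisons of a day. Within a single comparison, each normalized separately, the Q133H level on day 2 was 2.95-fold that of wildtype and the del95-99 level 2.05-fold. Each of the 5 lines was above wildtype on days 1 and 2, and the log2 ratios of 0.33 to 1.56 include 2 past 2-fold.

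Keap1, the inhibitor and redox sensor of NRF2, was the least variable member. Its levels were 922, 681, and 607 in wildtype from day 0 to day 2, and 837, 620, and 499 in +EMD, the lowest of all on day 2. In Q133H they were 879.7, 884, and 739, so that line held its day 0 level on day 1. The log2 ratios to wildtype lay between -0.26 and 0.34 over all 15 comparisons, and from the highest to the lowest of 18 groups the range was 2.00-fold.

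Slc7a11 encodes xCT, the transporter subunit that exchanges glutamate for extracellular cystine and thereby supplies cysteine for glutathione. Its level on day 0 was 824 in +EMD, 452 in del95-99, 247 in S54F, 243 in EMD-/y, 173 in wildtype, and 136 in Q133H. The +EMD level was 4.79-fold that of wildtype and the del95-99 level 2.58-fold. On day 1 wildtype was highest, at 125, followed by del95-99 at 79.6, Q133H at 60.4, +EMD at 39.8, EMD-/y at 37.9, and S54F at 28.2. S54F, EMD-/y, and +EMD were 4.44-fold, 3.13-fold, and 3.15-fold below wildtype on day 1. On day 2 the levels were 157 in Q133H, 119 in wildtype, 109 in del95-99, 92.2 in EMD-/y, 80.2 in +EMD, and 54.3 in S54F, where S54F alone was past 2-fold, 2.10-fold below wildtype.

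In the tables between days, Slc7a11 was 20.8-fold lower on day 1 than on day 0 in +EMD, which is the value the gene was chosen by. The fold was 8.86 in S54F, 6.17 in EMD-/y, 5.55 in del95-99, and 2.15 in Q133H, and only 1.36 in wildtype. Every line carrying the Emd deletion therefore had a steeper decline than wildtype, and the log2 change differed from that of wildtype by -3.94 in +EMD, -2.71 in S54F, -2.19 in EMD-/y, -2.03 in del95-99, and -0.66 in Q133H. The 5 differences share 1 wildtype transition. From day 1 to day 2 the level was higher again, 2.79-fold in EMD-/y, 2.59-fold in Q133H, 2.31-fold in +EMD, 2.24-fold in S54F, and 1.51-fold in del95-99, against 1.07-fold in wildtype. The S54F and +EMD values slipped under 2-fold with columns divided by their sums, to log2 ratios of 0.89 and 0.97. Over both steps, Slc7a11 was 8.98-fold below its day 0 level in +EMD, while in Q133H it ended 1.20-fold above.

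Slc7a11 was also the least abundant member per length of transcript. On the scale of level per kilobase of gene model, its median over the 18 groups was 12.3, against 206 for Keap1, 244 for Gclm, and 1467 for Txnrd1. Its gene model is 9227 bases long, the longest of the 9. Over the 18 groups its highest level was 29.2-fold its lowest, a range exceeded only by Nqo1 at 51.8-fold.

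**Figure D4:**
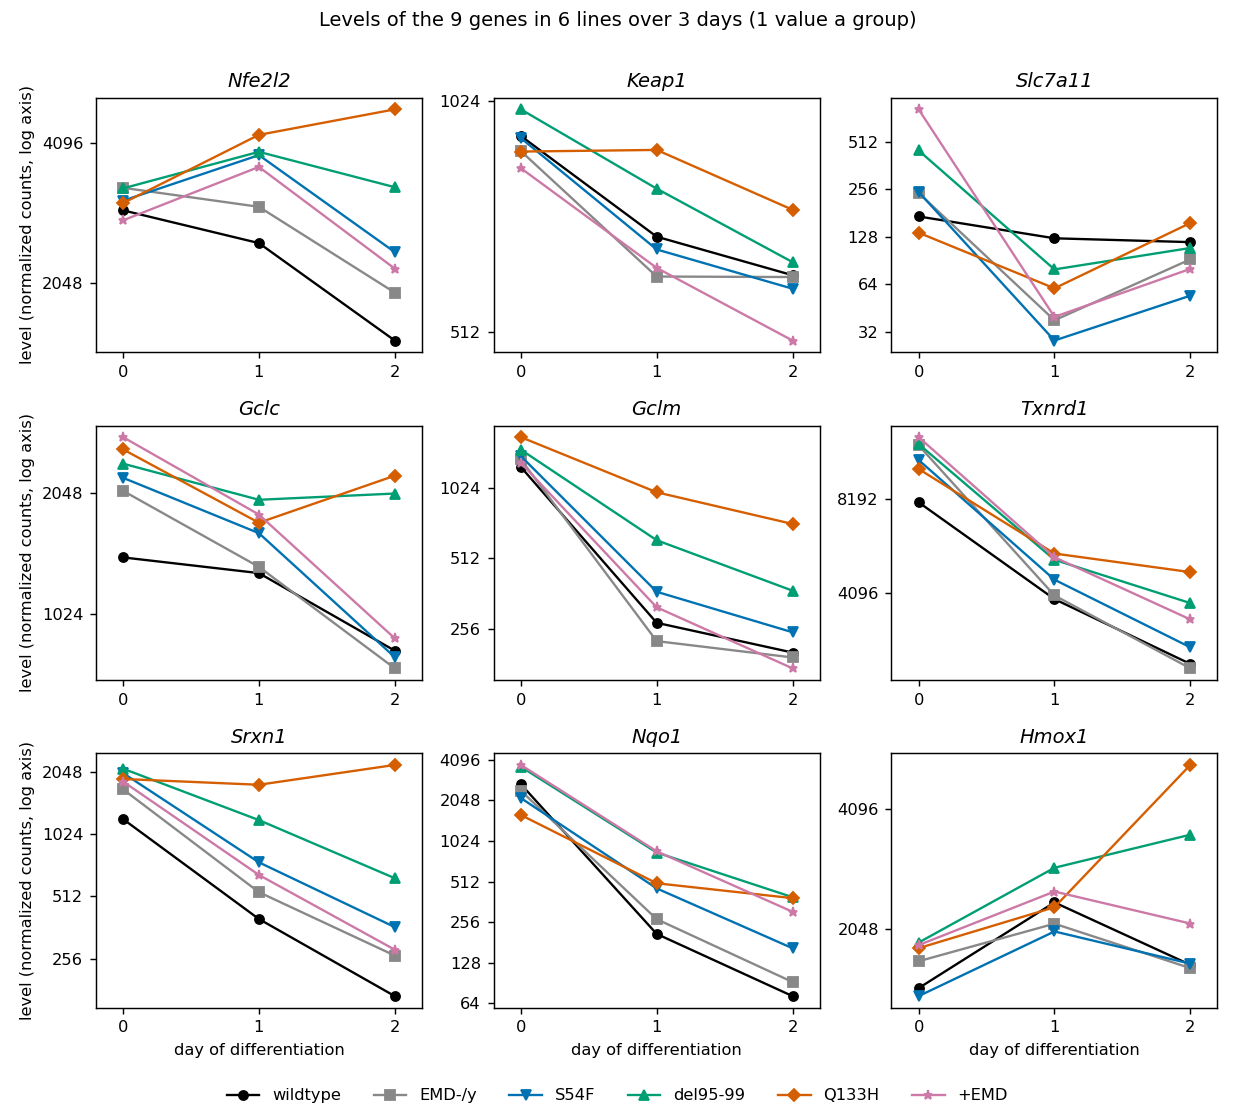
Level (normalized counts, log axis) of each of the 9 genes, in separate panels, against the day of differentiation, with 1 line and marker for each of 6 lines and 1 value a group. Slc7a11 is highest in +EMD on day 0, at 824, and below wildtype in the 5 other lines on day 1, and in Q133H Srxn1 and Hmox1 end at 2209 and 5294 on day 2, the highest of the 18 groups.

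Gclc and Gclm encode the catalytic and the modifier subunit of glutamate-cysteine ligase, the rate-limiting enzyme of glutathione synthesis. The 2 subunits did not follow the same course. Gclc was at 1415 in wildtype on day 0 and higher in all 5 other lines, at 2072 in EMD-/y, 2233 in S54F, 2422 in del95-99, 2629 in Q133H, and 2820 in +EMD. The +EMD level was 2.01-fold that of wildtype, just past the threshold, and its log2 ratio of 1.01 became 0.996 with columns divided by their sums. By day 2 Gclc was at 829 in wildtype, 749 in EMD-/y, 799 in S54F, and 889.7 in +EMD. The levels in del95-99 and Q133H on day 2 were 2041 and 2260, after 1969 and 1726 on day 1, which is on day 2 2.35-fold and 2.55-fold above wildtype.

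Gclm started alike in all lines, between 1257 in wildtype and 1685 in Q133H on day 0. On day 1 it was at 271 in wildtype, 227 in EMD-/y, 316 in +EMD, and 368 in S54F, but at 611 in del95-99 and 979.8 in Q133H. The last 2 levels were 2.19-fold and 3.51-fold above wildtype. From day 0 to day 1 it was 5.66-fold lower in EMD-/y, 4.60-fold lower in wildtype, and 1.70-fold lower in Q133H. On day 2 the Q133H level was 717 against 203 in wildtype, 3.31-fold higher, whereas del95-99 at 372 was 1.76-fold higher and +EMD at 173 was 1.14-fold lower.

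Txnrd1 and Srxn1 act in repair by thiols, Txnrd1 as the cytosolic thioredoxin reductase and Srxn1 as sulfiredoxin, which restores overoxidized peroxiredoxins. Txnrd1 was the most abundant member per kilobase and was above wildtype in all 15 comparisons, but by less than 2-fold in each, with log2 ratios of 0.04 to 0.88. Its level was 7984 in wildtype and 12894 in +EMD on day 0, and 2430 and 3372 on day 2. In Q133H it was at 10203, 5476, and 4776 on the 3 days, and the day 2 ratio to wildtype of 0.88 became 1.13 with columns divided by their sums.

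Srxn1 showed the largest difference from wildtype of the 9 genes. Its level was 1209, 398, and 169 in wildtype over days 0, 1, and 2, and 1684, 536, and 265 in EMD-/y. Both lines thus had the day-by-day decline that S54F (2018, 747, and 364) and +EMD (1837, 649.7, and 283) also had. In del95-99 the decline was shallower, with levels of 2119, 1196, and 627, and in Q133H the level was 1890, 1772, and 2209, slightly lower on day 1 and highest on day 2. The Q133H level was 1.55-fold that of wildtype on day 0, 4.34-fold on day 1, and 12.1-fold on day 2. In del95-99 it was 1.73-fold, 2.93-fold, and 3.57-fold. All 15 comparisons were above 0, with log2 ratios of at least 0.48.

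Nqo1 encodes a quinone reductase that is a standard readout of NRF2 in cells. It had the steepest decline of the members in wildtype, from 2705 on day 0 to 209.8 on day 1 and 72.6 on day 2, which is 12.1-fold in the first step and 2.51-fold in the second. EMD-/y was close to wildtype, at 2419, 269.9, and 92.3. The other lines ended higher, S54F at 164, +EMD at 306, Q133H at 386, and del95-99 at 393 on day 2. Their ratios to wildtype on that day were 2.35-fold, 4.27-fold, 4.99-fold, and 5.20-fold. In +EMD the ratio was 1.39-fold on day 0 and 4.09-fold on day 1. In Q133H it was 1.68-fold below wildtype on day 0 and 2.33-fold above on day 1, so the order of these lines on day 0 was not that of day 2.

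Hmox1, haem oxygenase 1, degrades haem to biliverdin, iron, and carbon monoxide and also answers to the repressor BACH1. It was the one member with a higher level on day 1 than on day 0 in every line, from 1.27-fold in Q133H to 1.63-fold in wildtype. Its levels in wildtype were 1453, 2388, and 1664, in EMD-/y 1698, 2111, and 1632, and in S54F 1388, 2018, and 1675. These 3 lines returned toward their starting level on day 2, as did +EMD at 1865, 2543, and 2113. In del95-99 the level went on to 3534 and in Q133H to 5294 on day 2, 2.03-fold and 2.96-fold above wildtype, and from day 1 to day 2 it was 2.40-fold higher in Q133H.

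The members did not all vary together over the 18 groups. As a description over 18 group values that share tables and normalization, Pearson's r of the log2 levels was 0.97 for Nqo1 with Txnrd1, 0.96 for Keap1 with Gclm, and 0.93 for Gclm with Srxn1. For Hmox1 with Nqo1 it was -0.18, and for Slc7a11 with Nfe2l2 -0.08. Slc7a11 had its highest r among the members with Txnrd1, 0.67. The 5 genes most like Slc7a11 among 11501 genes were Zfp566 (r 0.89), Cyb561d1 (0.87), Ltbp3 (0.86), Eea1 (0.85), and Senp6 (0.84), and no member was among them. Their ranges were far narrower than that of Slc7a11. Zfp566 went from 183 in the highest group to 66.8 in the lowest, and in +EMD on day 0 it was at a log2 ratio of 0.77 to wildtype, against 2.26 for Slc7a11.

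Levels of muscle genes also differed between lines. Of 10 muscle progenitor and muscle markers, 8 were at least 2-fold lower than wildtype in Q133H on day 2 (16.1% of all listed genes) and 3 in del95-99 (9.02%), while 0 were in EMD-/y (2.88%) and S54F (5.15%) and 1 was in +EMD (7.9%). The progenitor factors Myf5 and Pax7 were both at least 2-fold higher on day 2 in del95-99, S54F, and +EMD. In EMD-/y Pax7 was, and in Q133H Myf5 was while Pax7 was among the 8 lower. On day 1 the counts of lower markers were 9 in Q133H (16.3%), 6 in del95-99 (13.1%), 4 in +EMD (11.2%), 1 in S54F (6.75%), and 0 in EMD-/y (2.77%). The summed level of the 10 markers on day 2 was 729072 in wildtype, 681947 in EMD-/y, 614459 in S54F, 481020 in +EMD, 360627 in del95-99, and 162452 in Q133H. In wildtype this sum rests mostly on Myh3 and Acta1, at up to 268822 and 269122. Myf5 and Pax7 were at most 241 and 388 in wildtype. Myh3, embryonic myosin heavy chain, was at a log2 ratio of -3.67 in Q133H and -1.84 in del95-99 on day 2. No marker of the 10 was at 0. The 2 lines with the most members at least 2-fold above wildtype on day 2 are thus the 2 with the lowest summed muscle markers. Of the other lines, S54F had 2 such members and +EMD had 1, while the sum was lower in +EMD. Some markers of other cells were also past 2-fold. On day 2, 14 of the 17 were listed in Q133H. Of these, 7 were at least 2-fold higher (Pdgfra, Pecam1, Kdr, Tek, Cd68, Pparg, and Fabp4, background 19.2%). Another 3 were lower (Col1a1, Thy1, and Cdh5), near the background of 16.1%. In del95-99 4 of 14 were higher (Kdr, Tek, Pparg, and Fabp4, background 13.7%) and 3 lower (9.02%). The counts higher were 2 of 15 in EMD-/y (5.02%), 1 of 14 in S54F (6.32%), and 1 of 14 in +EMD (11.6%). The last 2 are near the background. In +EMD 2 were lower (7.9%), and 0 in EMD-/y (2.88%) and S54F (5.15%). Pecam1, Fabp4, Cdh5, and Thy1 are low in these cells, at most 16.52, and low deposited levels are not plain means. The summed level of the 4 macrophage and blood markers on day 2 was 109 in Q133H, mostly Cd68, 43.4 in del95-99, and 17.2 to 26.5 in the other 4 lines, and that of the 4 adipocyte markers was 4.49 in wildtype, 6.58 in S54F, 8.47 in EMD-/y, and 17.8 to 18.7 in the other 3. The part of these markers in the differences of the members was not tested. On day 1 the summed level of the 10 muscle markers was 262524 in wildtype, 247806 in EMD-/y, and 184204 in S54F. It was 128637 in +EMD, 58090 in del95-99, and 31478 in Q133H. On that day Slc7a11 was below wildtype 3.13-fold in EMD-/y, 4.44-fold in S54F, and 3.15-fold in +EMD. It was 1.62-fold below in del95-99 and 2.13-fold below in Q133H. A link between the 2 was not tested.

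Other NRF2 targets, a list of 21 genes with roles in glutathione reduction, the pentose phosphate pathway, iron storage, and drug conjugation, were measured beside the members. The list was also written with earlier results of these data known. At least 2-fold above wildtype on day 2 were 11 of 21 in Q133H (19.2% of all listed genes) and 7 of 21 in del95-99 (13.7%). The count was 2 in +EMD, which is under its background of 11.6%, and 0 in EMD-/y (5.02%) and S54F (6.32%). In +EMD 3, 2, and 1 of 21 were at least 2-fold lower on days 0, 1, and 2. These counts are near the background of 11.4%, 11.2%, and 7.9% of all listed genes. Mgst1, a microsomal glutathione transferase, was at log2 ratios of -2.80, -1.79, and -1.92 on those days. Ephx1, an epoxide hydrolase, was at -2.28, -1.11, and -0.56, and Gsta4, another glutathione transferase, at -1.54 on day 0. On day 1 the counts above wildtype were 5 in Q133H (10.3% of all listed genes), 5 in del95-99 (9.56%), and 2 in S54F (6.19%). They were 2 in +EMD (9.33%) and 1 in EMD-/y (4.98%), both near the background. The median log2 ratio of the list in Q133H on day 2 was 1.23, against 0.02 over all listed genes, and in +EMD it was 0.01 against 0.03. From day 0 to day 1, 10 of 21 were at least 2-fold lower in wildtype (10.4% of all listed genes), 9 in EMD-/y (9.19%), and 9 in S54F (7.49%). The counts were 8 in +EMD (6.85%), 4 in del95-99 (7.19%), and 3 in Q133H (6.42%).

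Gsr, glutathione reductase, which regenerates glutathione from its oxidized form, had the largest median ratio to wildtype of the list, 1.71 over 15 comparisons. Its level on day 1 was between 285 and 304 in wildtype, 878 in EMD-/y, 1206 in S54F, 1427 in Q133H, 2348 in del95-99, and 2896 in +EMD. It was thus higher in all 5 lines, and +EMD, with a log2 ratio of 3.28, was the highest. Gstm1, a glutathione transferase, had a median of 0.84 and was past 2-fold in 5 comparisons. Ftl1, the ferritin light chain, had a median of 0.49, and its largest ratio was 2.42 in Q133H on day 2, where it was at 48778 against 9104. Between days, G6pdx, the entry enzyme of the pentose phosphate pathway, had a median log2 change of -1.77 from day 0 to day 1, whereas Ephx1, an epoxide hydrolase, had 1.78. From day 1 to day 2 the largest medians were -1.35 for Abcc4, an efflux pump, and -1.14 for Tkt, transketolase.

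The partners and regulators of NRF2, 10 genes, had log2 ratios to wildtype of -0.88 to 1.80. Of the 10, 1 was at least 2-fold higher than wildtype in 1 comparison, Bach2 in Q133H on day 2, under the background of 19.2%. In the 14 other comparisons 0 were, against 4.98% to 13.7% of all listed genes. None of the 10 was at least 2-fold lower in any of the 15 comparisons, against 2.77% to 16.3% of all listed genes. Bach2 is low in these cells, at 6.04 to 47.7, and its median ratio was 0.33. Bach1, the repressor of Hmox1, was just under 2-fold higher in +EMD on day 0, at 1601 against 801, and Nfe2l1, a relative of NRF2, had its lowest ratio, -0.88, in +EMD on day 1. Among the 9 genes with a level of at least 10 in each comparison, the 3 largest medians in size over the 15 comparisons were 0.42 for Btrc, a ubiquitin ligase adaptor that also acts on NRF2, -0.31 for Mafk, a small MAF partner, and 0.25 for Sqstm1, the autophagy receptor p62 that binds KEAP1. From day 0 to day 1 the largest medians over the 6 lines were -1.07 for Bach2 and -1.05 for Maff, and from day 1 to day 2 they were 0.63 for Nfe2l1 and 0.58 for Bach1.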

How the data were processed

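RNA of 54 samples in 18 groups of 3 labelled replicates was sequenced. Per the labels and the study's methods, the authors' provider filtered the reads with SOAPnuke, mapped them to mm10 with HISAT2, and compared pairs of groups with DESeq2. The signal values deposited by the authors are group values of normalized counts, 2 columns in each of 27 tables, and the gene model length in bases is an other value that the authors deposited. The tables also hold the authors' log2 fold changes, p-values, q-values, and calls, which were not used here. There are 0 columns of single samples, so depth and spread per sample, tests, and intervals were not obtained, and whether the labelled replicates are separate cultures is not stated for each sample. The study's methods describe technical triplicates of each of 2 biological replicates.

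Genes were matched to symbols through NCBI gene numbers. The deposited levels are not plain means at low values. Genes under 0.2 were the same genes in both columns in 21 of 27 tables, and the value of a group at a level over 0.5 and up to 1 differed between tables by a median of up to 1.23 on the log2 scale, against at most 0.0039 at levels over 100. For the 9 genes the difference was at most 0.105 (Nqo1).

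Ratios were taken within a table. Levels across groups are those in the tables against wildtype, with wildtype averaged over its 5 tables, since each table was normalized separately. The 9 genes and all lists were chosen with earlier results of these data known. Named genes of other lists were the 3 with the largest median ratio in size over 15 line tables, with a level of at least 10, and the 2 largest for each transition, plus the 5 genes with the highest Pearson's r to Slc7a11 among those with a level of at least 5 ppm of the column sum in their highest group. Some genes outside this rule, such as Mgst1, Gsta4, Slc3a2, and Ddit3, were also named, with values from single comparisons. Not every gene that the rule picked is given with its median. Ratios and calls were tested on simulated data. Alternatives were a 1.5-fold threshold, a pseudocount of 1, columns divided by their sums, median centring, a level of at least 10, ratios rebuilt from other tables, Spearman's rho, and looser letters. Counts without Slc7a11 were added after seeing the data. Python 3.11.15, numpy 2.4.6, pandas 2.3.3, and matplotlib 3.10.9 were used.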

Additional observations from a re-analysis of the deposited data

How the results depend on the processing

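The median centring, the pseudocount of 1, and the level of at least 10 left all 14 counts of member values past 2-fold within 1.5 times, and no log2 ratio moved by more than 0.1. At 1.5-fold, the member values above wildtype over 3 days became 2 in place of 0 in EMD-/y, 8 in place of 3 in S54F, 14 in place of 9 in del95-99, and 8 in place of 4 in +EMD. Those below wildtype became 1 in place of 0 in del95-99 and 2 in place of 1 in Q133H. Over the 6 lines, values higher on day 1 than on day 0 became 2 in place of 0, and values lower on day 2 than on day 1 became 14 in place of 5. Dividing columns by their sums shifts all genes of a table by -0.25 to 0.27 on the log2 scale. It took 11 of 243 member ratios across 2-fold, and the values below wildtype in Q133H became 0 in place of 1. The values lower on day 2 than on day 1 became 11 and the higher ones 3, each in place of 5. Without Slc7a11, the values lower on day 1 than on day 0 were 20 in place of 25. Rebuilding a ratio from 3 other tables moved 3 of 135 by more than 0.1, at most 0.116. Of the 5 genes most like Slc7a11, 3 were also found with Spearman's rho and 3 with a floor of 10 ppm of the column sum. The looser letters were in 6 of 7 genes in place of 3.

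No paired analysis was possible because the tables hold 1 value a group, so neither a block by the replicate numbers that the labels share nor the omission of a replicate was run. Levels near 1 are limited by how the authors' values were made.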

Other observations

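Genes that use glutathione or supply cysteine were put in a list of 10, also with earlier results of these data known. Cth, which makes cysteine from cystathionine, had a median log2 ratio to wildtype of -0.75 over 15 comparisons and on day 0 it was at 55.8 to 77.9 in the 5 lines against 179 to 184 in wildtype. In Q133H on day 2 it was 207 against 102. Gss, glutathione synthetase, had a median of -0.45 and Glrx, glutaredoxin, one of -0.48. From day 0 to day 1, Glrx had a median log2 change of -1.31, and Cbs, the other enzyme of the route from homocysteine to cysteine, one of 2.85 over the 6 lines. Slc3a2, the heavy chain that pairs with the Slc7a11 product, was at 1735 against 3859 in Q133H on day 2, and it was at 3893 against 2671 in +EMD on day 0, where Slc7a11 was at its highest.

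The 14 genes of the ATF4 list, the amino acid response, had a median log2 change from day 1 to day 2 of 0.95 in EMD-/y, 0.94 in S54F, 0.84 in +EMD, 0.78 in wildtype, and 0.63 in del95-99, against -0.15 in Q133H, with medians of -0.03 to 0.03 over all listed genes. Over the same step, the log2 change of Slc7a11 was 1.48 in EMD-/y, 1.16 in S54F, and 1.21 in +EMD. It was 0.09 in wildtype, 0.60 in del95-99, and 1.37 in Q133H. From day 0 to day 1 the median of the ATF4 list was between -0.78 in +EMD and 0.02 in Q133H. A link between the ATF4 list and Slc7a11 was not tested. In Q133H on day 2, 7 of the 14 were at least 2-fold below wildtype, among them Asns and Chac1 (16.1% of all listed genes), and 4 were at least 2-fold above, Ddit3, Sesn2, Ddit4, and Vldlr (19.2%), while Slc7a11 was at a log2 ratio of 0.30. Vldlr, a lipoprotein receptor induced in the amino acid and unfolded protein responses, had the largest median ratio to wildtype, 1.34.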
